A study of Mus musculus with 10 samples.

Results

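Epcam, Perp, Cdh1, Krt19, Krt79 and Plet1 are 6 genes best known from epithelium that were read in RNA-seq libraries of sorted lung macrophages. They were selected on their counts in the same libraries, which earlier results had shown to be far lower in macrophages of lung metastases than in macrophages of normal lung, so their difference between those groups is described here and not tested. The question asked of them was whether their reads follow those of macrophage genes or those of epithelial cells. All 6 names were found among the 24538 genes of the count files, and all 6 passed the filter on low values, a mean of at least 1 FPKM (fragments per kilobase of transcript, scaled to the mapped fragments of the library) in either group. They would have passed it through the normal lung group alone.

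There were 5 libraries of metastasis-associated macrophages (MAMs) and 5 of resident alveolar macrophages (RAMs), all from wild type C57BL6/J mice aged 8 to 10 weeks. MAMs were CD45+ F4/80+ LY6C- MRC1+ cells of high forward scatter that were CD11B+ and CD11C-, sorted from dissected metastases that E0771-LG cells, a mouse mammary tumour line given by tail vein, had formed in the lungs of female mice of 6 to 8 weeks. Metastases of 2 to 4 mice were pooled for a library. RAMs came through the same gates except that they were CD11B- and CD11C+, from the lungs of mice without tumours, and both digestions held the transcription inhibitors alpha-amanitin and actinomycin D. Tissue state, surface markers and cell identity therefore changed together and cannot be told apart. Libraries are called MAM1 to MAM5 and RAM1 to RAM5 by replicate number.

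Epithelial cells hold to each other through adherens junctions, tight junctions and desmosomes, and stiffen themselves with filaments built from pairs of one type I and one type II keratin. Cdh1 encodes E-cadherin, the adhesion receptor of adherens junctions, which is tied to the cytoskeleton by catenins, and Epcam encodes a surface adhesion protein of most simple epithelia. Perp encodes a membrane protein of desmosomes and a target of p53 and p63, Krt19 a type I keratin, Krt79 a type II keratin, and Plet1 a surface protein with a lipid anchor first described in placenta. Alveolar macrophages live on the air side of the alveolar epithelium and are known for a gene programme of their own, with Siglecf, Chil3, Fabp1 and the eosinophil-associated ribonuclease Ear1 among its markers.

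On GRCm38, with GENCODE M21 gene models, Plet1 lies at chr9:50494525-50505482 on the plus strand, Krt19 at chr11:100140810-100148665 on the minus strand, Perp at chr10:18845020-18857073 on the plus strand, Krt79 at chr15:101929332-101940324 on the minus strand, Cdh1 at chr8:106603351-106670246 on the plus strand and Epcam at chr17:87635979-87651129 on the plus strand. The 6 genes are thus on 6 chromosomes. Of the 6, Plet1 alone overlaps another annotated gene, the antisense gene Plet1os. The strand setting of the counting is not given in the sources used here, so reads of these overlapping genes cannot be told apart.

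Promoters of Plet1, Krt79 and Epcam were in the RefSeq promoter table of GRCm38.p6, and Cdh1, Krt19 and Perp were not. The 250 bases before each start are shown because the members were low and high in the same libraries, and because CACCTG is the E-box bound by ZEB and SNAI proteins, known repressors of Cdh1. Capitals mark every match to 1 of 7 motifs searched on both strands, each spelled out with its count in the next paragraph.
Plet1, chr9:50494275-50494524, plus strand: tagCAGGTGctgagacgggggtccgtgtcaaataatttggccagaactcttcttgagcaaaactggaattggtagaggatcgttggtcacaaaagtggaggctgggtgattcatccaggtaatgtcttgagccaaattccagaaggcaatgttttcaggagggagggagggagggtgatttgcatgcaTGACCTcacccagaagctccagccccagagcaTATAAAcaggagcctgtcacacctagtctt
Krt79, chr15:101940325-101940574, minus strand: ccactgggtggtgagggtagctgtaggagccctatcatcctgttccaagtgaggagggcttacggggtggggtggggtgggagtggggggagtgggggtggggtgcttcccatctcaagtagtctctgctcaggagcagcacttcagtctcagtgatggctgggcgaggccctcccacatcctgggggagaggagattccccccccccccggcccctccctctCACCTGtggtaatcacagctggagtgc
Epcam, chr17:87635729-87635978, plus strand: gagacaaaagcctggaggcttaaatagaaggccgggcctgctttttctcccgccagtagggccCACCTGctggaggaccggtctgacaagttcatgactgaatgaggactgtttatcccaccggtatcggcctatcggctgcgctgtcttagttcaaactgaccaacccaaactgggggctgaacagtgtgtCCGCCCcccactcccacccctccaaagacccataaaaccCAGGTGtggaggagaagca

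The E-box, read as CACCTG or CAGGTG, was found in 3 of these 3 promoters and in 17.2% of all 32851 promoters of the table. In Plet1 it began 247 bases before the start, in Krt79 27 bases before it, and in Epcam at 187 and at 19 bases. AGGTCA, a site of nuclear receptors, was found 62 bases before the start of Plet1 (14.02% of all promoters). TATAAA, the TATA box, was found 30 bases before the start of Plet1 (12.4%), and GGGCGG, bound by SP and KLF proteins, 58 bases before that of Epcam (32.7%). GAGGAA (the core bound by PU.1, 23.3%), TTGCAA (C/EBP, 5.34%) and AACCGG (GRHL, 5.62%) did not occur in these windows. The matches did not overlap, and TTGCAA reads the same on both strands. A match is a string of letters and no evidence that a factor was bound.

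Each of the 6 genes was high in every RAM library and low in every MAM library. The values are CPM, counts scaled to library size with factors from the trimmed mean of M values (TMM), and they set 1 gene beside itself in other libraries. Plet1 had 926, 1108, 1029, 1121 and 1018 CPM in RAM1 to RAM5 and 11.4, 10.98, 12.1, 11.1 and 10.3 CPM in MAM1 to MAM5. The 5 values of each group lay close together, and the lowest RAM library stood 76.3-fold above the highest MAM library. The log2 fold change of MAMs against RAMs was -6.54 (SE 0.0913, n = 5 per group).

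Krt19 had 458, 492, 460, 390 and 377 CPM in RAM1 to RAM5 and 10.9, 5.90, 5.88, 4.14 and 3.58 CPM in MAM1 to MAM5. MAM1 was the highest of the MAM libraries, and the log2 fold change was -6.17 (SE 0.271). Without MAM1 the MAM mean was 4.88 CPM, against 6.09 CPM with it.

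Perp had 230, 201, 183, 208 and 163 CPM in RAM1 to RAM5 and 1.89, 1.89, 1.79, 1.54 and 1.90 CPM in MAM1 to MAM5. No MAM library stood apart, and the log2 fold change was -6.77 (SE 0.132). Krt79 had 166, 160, 160, 174 and 162 CPM in RAM1 to RAM5 and 1.40, 1.61, 2.42, 1.30 and 1.74 CPM in MAM1 to MAM5. The RAM libraries differed by no more than 1.09-fold, and the log2 fold change was -6.60 (SE 0.160).

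Cdh1 had 107, 134, 135, 150 and 128 CPM in RAM1 to RAM5 and 1.83, 2.19, 4.41, 6.17 and 11.2 CPM in MAM1 to MAM5. It was the member with the widest spread in MAMs, 6.13-fold from MAM1 to MAM5, and the one with the smallest difference, with a log2 fold change of -4.65 (SE 0.407). The lowest RAM library was still 9.56-fold above the highest MAM library. Epcam had 100.2, 76.1, 74.4, 49.2 and 84.0 CPM in RAM1 to RAM5 and 0.549, 0.7497, 0.827, 0.543 and 0.589 CPM in MAM1 to MAM5. It was the least abundant of the 6 in CPM in both groups and had the widest spread in RAMs, with RAM4 lowest. Its log2 fold change was -6.88 (SE 0.230), on 27 to 41 counts in a MAM library and 2356 to 5850 in a RAM library.

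**Figure D1:**
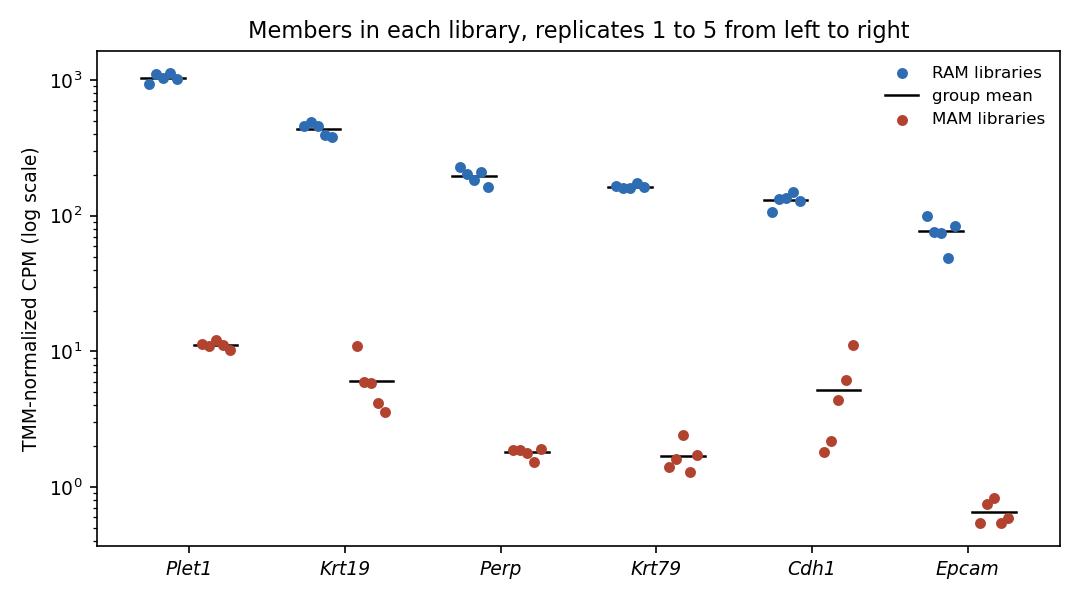
Normalized level of each member in every library, in TMM-normalized CPM on a log axis; points are libraries, replicates 1 to 5 from left to right, blue for RAMs and red for MAMs, and black bars are group means. The groups do not overlap for any member, and in MAMs Cdh1 spans 1.83 to 11.2 CPM while Plet1 spans 10.3 to 12.1 CPM.

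Over all 11571 genes tested, 15.1% were called lower in MAMs, 15.3% were called higher, and 21.2% had every MAM library below every RAM library. A gene was called where edgeR's quasi-likelihood test gave a fold over 2 and a Benjamini-Hochberg adjusted p below 0.05. All 6 members had every MAM library below every RAM library, which follows from how they were chosen. Their median log2 fold change was -6.57, against -0.02 over all genes tested. In bulk samples, fewer cells that express a gene and less RNA per cell cannot be told apart.

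Per unit of transcript length, Plet1 was the most abundant member in RAMs, with a mean of 982 FPKM (900.7 to 1052, n = 5), and held rank 60 among 24460 genes. Krt19 followed with 540.3 FPKM (464 to 595) at rank 87. Their ranges did not overlap each other or those of the other members. Perp with 101 FPKM (83.6 to 118) and Krt79 with 95.0 FPKM (90.8 to 101) overlapped, at ranks 561 and 611. Epcam with 47.0 FPKM (29.8 to 61.1) and Cdh1 with 30.6 FPKM (24.9 to 35.3) overlapped as well, at ranks 1354 and 2186. In MAMs the ranks ran from 5563 for Plet1 to 11916 for Epcam, and Plet1 had 10.4 FPKM (9.96 to 11.1) and Krt19 7.07 FPKM (4.31 to 11.7). The other 4 members lay between 0.366 and 2.50 FPKM in every MAM library, where the range of Cdh1 overlapped those of Perp, Krt79 and Epcam.

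Epithelial markers were read in RAMs at a wide range of levels. Of 24 genes of general and mammary epithelium, 5 had a mean of at least 1 FPKM in RAMs, and 1 had at least 10. That gene was Spint1, a serine protease inhibitor, with 31.8 to 41.3 FPKM. The list held 6 genes with no count in any RAM library, among them Cldn3, Cldn6, Krt5 and Krt17, and a count of 0 allows up to 3 counts in a library. Krt18, a keratin of simple epithelia, had at most 0.435 FPKM in a RAM library. Of 24 genes of lung epithelium, 11 had at least 1 FPKM and 5 at least 10. Scgb1a1, secreted by club cells, had 36.2, 42.8, 47.2, 36.1 and 40.0 FPKM in RAM1 to RAM5, and Sftpc, the surfactant protein of alveolar type II cells, had 33.2, 22.1, 37.7, 11.1 and 14.1 FPKM. Ager, of type I cells, had 0.626 to 1.78 FPKM and Foxj1, of ciliated cells, 0.276 to 2.28 FPKM. The mean of Plet1 in RAMs was 41.6 times that of Sftpc, that of Krt19 22.9 times and that of Epcam 1.99 times, with the ranges of Epcam and Sftpc overlapping. Cdh1 was 1.30 times Sftpc and 0.758 times Scgb1a1.

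**Figure D2:**
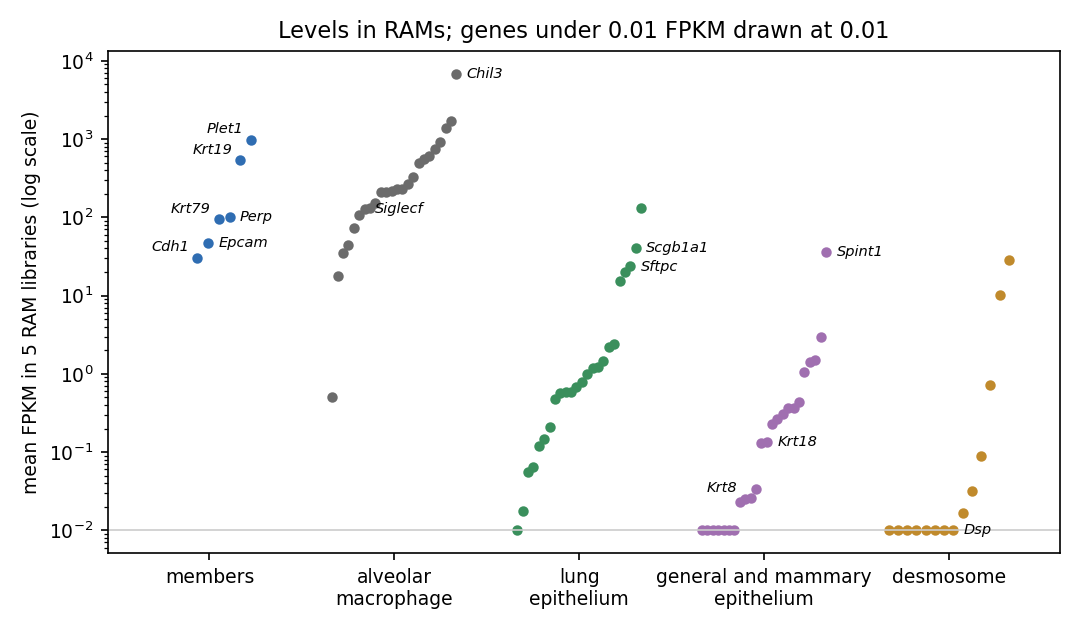
Mean FPKM over the 5 RAM libraries on a log axis for the members and for genes of 4 lists, each point 1 gene, with genes under 0.01 FPKM drawn at 0.01. The members lie between 30.6 and 982 FPKM, within the range of the alveolar macrophage genes; of the epithelial lists Tppp3 (130 FPKM), Scgb1a1 (40.4) and Spint1 (36.2) lie in the same range, and Krt8 and Krt18 under 1 FPKM.

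The keratins were read unevenly. Of 51 keratin genes known by symbol, 29 had no count in any of the 10 libraries and 35 had under 10 counts in every library. Krt8, the type II keratin that pairs with Krt18 and Krt19 in simple epithelia, had 12, 0, 0, 1 and 0 counts in RAM1 to RAM5, where Krt19 had 17702 to 32765 counts. In MAM1 to MAM5 Krt8 had 71, 53, 148, 34 and 71 counts beside 229 to 538 counts of Krt19. The FPKM ratio of Krt8 to Krt19 was thus 0.0648 to 0.266 in MAMs and at most 2.3e-04 in RAMs. Part of this difference follows from the choice of Krt19 for low MAM counts, and the ratio says nothing of the source of its reads. Krt8 did not reach the filter and was not tested.

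Beside Krt19 and Krt79, 5 keratins were tested, and the highest RAM mean among the 49 keratins that are no members was 8.54 FPKM, of Krt80. Krt80, a type II keratin, rose in MAMs, from 5.67 to 11.01 FPKM in RAMs to 40.2 to 67.8 FPKM in MAMs (log2 fold change 2.70, SE 0.169, adjusted p = 2.5e-09, edgeR's quasi-likelihood test). Krt4, of stratified epithelia, fell, with 60 to 338 counts in RAM libraries and at most 6 in MAM libraries (adjusted p = 2.1e-05, edgeR's quasi-likelihood test). Krt15, a type I keratin of basal cells, fell, with 49 to 389 counts in RAM libraries and at most 2 in MAM libraries (adjusted p = 4.9e-06, edgeR's quasi-likelihood test). Krt15 was not called with limma on log2(FPKM + 1). Krt1 and Krt18 were not called in either direction, though each was called under 3 of the alternatives tried. Similar keratins can share reads, though the counted reads were those mapped to 1 place.

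In MAMs 5 members were left at 0.849% to 1.40% of their RAM level on average. The members were chosen for low MAM counts, so these shares are described only. The MAM mean was 0.849% of the RAM mean for Epcam, 0.913% for Perp, 1.03% for Krt79, 1.07% for Plet1 and 1.40% for Krt19, and 3.95% for Cdh1. By library the share of Plet1 ran from 0.990% to 1.17%, that of Perp from 0.780% to 0.961% and that of Epcam from 0.707% to 1.08%. That of Krt79 ran from 0.795% to 1.47%, and that of Krt19 more widely, from 0.821% to 2.51%. Among 3771 tested genes with at least 50 CPM in RAMs the median was 97.0%. Of these, 58 genes were under 5% and 35 (0.928%) under 1.5%, a limit that lies between Krt19 and Cdh1. Those 35 include 5 of the members, which follows from how they were chosen. They also include the alveolar macrophage genes Fabp1 (0.897%), Cidec (0.985%), Ear1 (1.01%), Car4 (1.12%), Chil3 (1.15%) and Siglecf (1.16%). The lowest of the 3771 was Dmd with 0.580%, so a larger difference was not seen for any abundant gene. In the other direction, of 4033 genes with at least 50 CPM in MAMs, 121 were under 1.5% in RAMs, with Ifi44 lowest at 0.660%. Dmd and Ifi44 were named after their values were seen, and the source of such low shares was not tested.

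**Figure D3:**
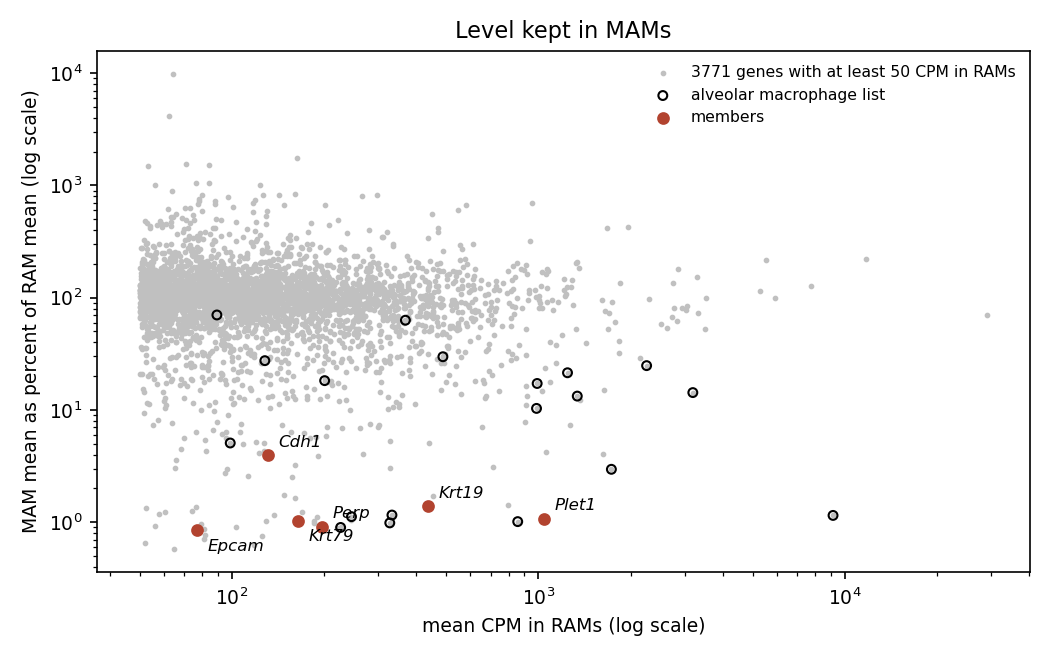
MAM mean as a percent of the RAM mean against the RAM mean in CPM, both on log axes, for 3771 genes with at least 50 CPM in RAMs; red points are the members and open circles the alveolar macrophage list. Of the members, 5 lie between 0.849% and 1.40%, with Cdh1 above them at 3.95%.

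Cdh1 and Krt19 were the members whose share differed most between MAM libraries. Cdh1 kept 1.40%, 1.68%, 3.37%, 4.72% and 8.57% of its RAM mean in MAM1 to MAM5, and 2.79% on average without MAM5. Krt19 kept 2.51%, 1.36%, 1.35%, 0.951% and 0.821%, and 1.12% on average without MAM1. The libraries thus stood in opposite order for the 2 genes, with MAM1 lowest for Cdh1 and highest for Krt19.

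Some other reads also differed between these libraries. MAM1 had 435 counts of Krt18, 294 of Cdh3 (P-cadherin), 69 of Dsg2 (a desmosomal cadherin), 48 of Grhl2 (an epithelial transcription factor) and 24 of Krt14, where no other MAM library had more than 9 of any of them. Of the 24 general and mammary epithelium genes, MAM1 was the highest MAM library for 7 and each other MAM library for 2 or 3. Another 7 had no count in any MAM library. MAM1 was highest for 12 of 20 cadherin junction genes, for 3 of 22 tight junction genes and for 2 of 14 desmosome genes. Of the 24 lung epithelium genes, however, it was highest for 1, and MAM3 for 8. Krt8 was highest in MAM3, with 148 counts against 71 in MAM1. The summed level of the general and mammary epithelium list was 20.6 FPKM in MAM1 and 3.72 to 11.99 FPKM in the other MAM libraries. In RAMs it was 42.5 to 52.7 FPKM, mostly from Spint1. Without Spint1 the sum was 1.69 to 16.2 FPKM in MAMs and 7.36 to 11.5 FPKM in RAMs, so the groups overlapped. MAM1 was lowest, however, in Sftpc, with 0.495 FPKM against 2.51 to 12.7 FPKM in the other MAM libraries. MAM5 and MAM4, the highest in Cdh1, were the highest MAM libraries in Snai2, a gene of the SNAI repressors of Cdh1 and no epithelial marker. Snai2 had 1.30 and 0.556 FPKM in them, against at most 0.0190 FPKM in the others. Cdh3, Dsg2, Grhl2, Krt14 and Snai2 were named after their values were seen. The part of these reads in the levels of Krt19 and Cdh1 was not tested.

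The members differed in how much they varied between RAM libraries. The coefficient of variation over RAM1 to RAM5 was 3.58% for Krt79, 7.56% for Plet1, 11.3% for Krt19, 11.9% for Cdh1, 12.9% for Perp and 24.1% for Epcam. Over 3732 genes with 50 to 1500 CPM in RAMs the median was 9.25%, and 90% of genes lay under 16.3%, so Epcam was the 1 member above that bound. Without RAM4 the coefficient of Epcam was 14.1%. Among alveolar macrophage genes it was 7.61% for Ear1, 10.7% for Siglecf and 11.9% for Chil3, but 22.7% for Fabp1, 25.5% for Fabp4, 26.5% for Marco and 32.0% for Car4. Among genes of the epithelial and junction lists it was 6.07% for Ocln, 7.67% for Spint1, 11.3% for Scgb1a1 and 21.2% for Tppp3, but 24.8% for Ager, 46.6% for Sftpb, 49.3% for Sftpc and 56.0% for Foxj1. The 2 kinds of gene overlapped in this measure.

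The order of the libraries differed between members. RAM4 was lowest in Epcam and also in Sftpc, Sftpb and Scgb1a1, but it was highest in Cdh1, Krt79 and Plet1. Other lung epithelium genes had another order, with RAM5 lowest in Foxj1 and RAM3 lowest in Ager. RAM1 was highest in Epcam and Perp, and RAM3 highest in Sftpc and Scgb1a1. The FPKM ratio of Sftpc to Epcam was 0.544, 0.475, 0.819, 0.373 and 0.274 in RAM1 to RAM5 and 1.35, 19.3, 22.6, 18.7 and 6.60 in MAM1 to MAM5. The ratio spanned 2.99-fold within RAMs. Its difference between the groups follows from the choice of Epcam for low MAM counts and says nothing of the source of its reads. The ratio of Scgb1a1 to Epcam spanned 2.05-fold within RAMs, from 0.592 to 1.21.

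**Figure D4:**
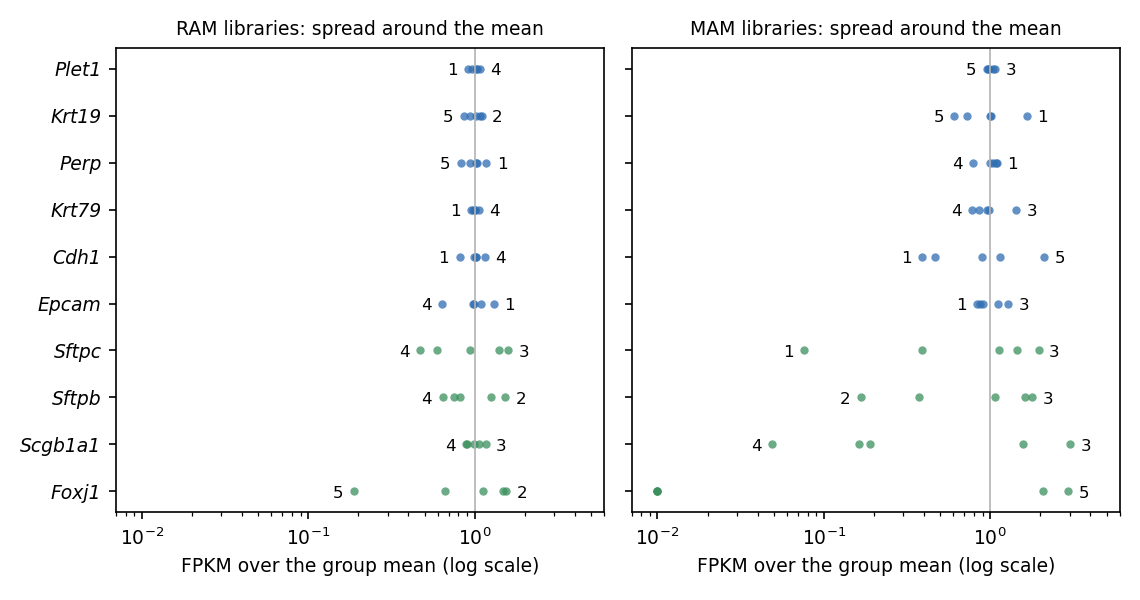
FPKM of each library over its group mean on a log axis, RAMs left and MAMs right, for the 6 members in blue and 4 lung epithelium genes in green; numbers mark the lowest and highest library, and libraries at 0 are drawn at 0.01. The RAM libraries lie closer together for Plet1 and Krt79 than for Sftpc, and Cdh1 has its lowest MAM library in MAM1 and its highest in MAM5.

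The lung epithelium genes moved in both directions. Of 24 listed, 12 were tested, of which 5 were called lower in MAMs, 3 higher and 4 in neither direction, with a median log2 fold change of -1.06, beside -0.02 over all genes and 15.1% called lower. Sftpc was 0.495, 9.43, 12.7, 7.38 and 2.51 FPKM in MAM1 to MAM5 and fell with a log2 fold change of -1.84 (SE 0.629, adjusted p = 0.021, edgeR's quasi-likelihood test). It was not called without RAM1 or without RAM3, with log2 fold changes from -2.32 to -1.54 over all alternatives. Scgb1a1 fell by 3.80 on the log2 scale (SE 0.670, adjusted p = 1.8e-04, edgeR's quasi-likelihood test) to 0.110 to 6.84 FPKM. Foxj1, Sftpb and Cyp2f2, an enzyme of club cells, were also lower. Etv5, a transcription factor of type II cells, Hopx and Pdpn, both markers of type I cells, rose, Etv5 by 5.02 (SE 0.163), to 23.7 to 27.7 FPKM from at most 0.964 FPKM in RAMs. Tppp3, a microtubule protein of ciliated cells and the most abundant gene of the list, had 55.5 to 85.0 FPKM in MAMs and 94.5 to 162 FPKM in RAMs and was not called. The summed level of the list was 173 to 240 FPKM in MAMs and 222 to 269 FPKM in RAMs. Without Tppp3 it was 108 to 170 FPKM in MAMs and 95.3 to 132 FPKM in RAMs. Pdpn alone had 38.0 to 78.9 FPKM in MAMs and at most 3.43 FPKM in RAMs, so the sum hides genes that moved in opposite directions.

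Of the general and mammary epithelium list, 7 of 24 genes were tested, and 5 were called lower in MAMs, none higher. Across all genes tested 15.1% were called lower. Spint2, Krt15 and Muc1 passed the filter through RAMs alone, which favours a lower call. Spint1 fell to 2.03 to 6.56 FPKM, by 2.96 on the log2 scale (SE 0.247, adjusted p = 6.9e-08, edgeR's quasi-likelihood test), and its relative Spint2, at 1.18 to 5.13 FPKM in RAMs, to at most 0.0917 FPKM. Krt15 and Muc1, a mucin, were also lower. Lcn2 and Krt18 were not called. With limma on log2(FPKM + 1), 2 of the list were called lower.

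E-cadherin works through catenins. Of 20 genes of the cadherin junction list, 14 were tested, with 2 called lower and 4 higher and a median of 0.21. Ctnnb1, beta-catenin, fell from 213 to 288 FPKM in RAMs to 77.9 to 99.2 FPKM in MAMs (log2 fold change -1.41, SE 0.0888, adjusted p = 2.7e-09, edgeR's quasi-likelihood test). Ctnna1, alpha-catenin, and Ctnnd1, p120 catenin, which bind the same cadherin tail complex, had log2 fold changes of 0.09 and -0.71 and were not called. Vcl, vinculin, rose by 2.62 (SE 0.122), and Nectin1 and Nectin4, adhesion proteins of the same junctions, rose as well.

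The tight junction list held genes with differences as large as those of the members. Of 22 genes in the files 10 were tested, with 7 called lower and 3 higher and a median of -3.05. Across all genes tested the shares were 15.1% lower and 15.3% higher, with a median of -0.02. Ocln, occludin, had 4.89 to 5.95 FPKM in RAMs and at most 0.0911 FPKM in MAMs, a log2 fold change of -7.42 (SE 0.445, adjusted p = 1.5e-09, edgeR's quasi-likelihood test). Cldn1, claudin 1, had 15.6 to 40.4 FPKM in RAMs and 0.216 to 0.460 FPKM in MAMs (-6.78, SE 0.290, adjusted p = 3.1e-11, edgeR's quasi-likelihood test). Its MAM mean was 0.914% of its RAM mean, next to that of Perp. Patj, a scaffold of the junction, Marveld2, tricellulin, and F11r, the adhesion molecule JAM-A, fell by 5.83, 4.34 and 2.92 on the log2 scale. Jam2, another of that family, rose by 4.71 and Tjp1, ZO-1, by 3.29. Ocln, Cldn1, Cldn12 and Patj passed the filter through RAMs alone, which favours a lower call. Tjp1, Jam2 and Cldn23 passed it through MAMs alone, which favours a higher call. Tjp1 and the claudins Cldn12 and Cldn23 were chosen after their values were seen.

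Of the desmosome list, 3 of 14 genes were tested, and none was called lower. Dsp, desmoplakin, was under 0.01 FPKM on average in RAMs, and 7 of the 14 had no count in any RAM library. Jup, plakoglobin, had 21.7 to 31.9 FPKM in RAMs and 10.4 to 21.0 FPKM in MAMs. Its log2 fold change was -0.79 (adjusted p = 0.0011, edgeR's quasi-likelihood test), and that of Pkp4 was 0.84 (adjusted p = 3.7e-05, same test). Both missed the call only through the fold limit of 2. Pkp3 rose, from at most 0.0689 FPKM in RAMs to 0.712 to 3.35 FPKM in MAMs. Taken over the 3 junction lists, with shared genes counted once, 9 of 26 genes tested were called lower, 8 higher and 9 in neither direction. Their median was -0.31, and across all genes tested 15.1% were called lower and 15.3% higher.

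Transcription factors and p53 targets were read for the same question. Of 15 epithelial transcription factors 3 were tested, and all 3 were called lower. Ovol2 and Grhl1 passed the filter through RAMs alone, which favours such a call, and genes called higher numbered 1 with edgeR's own filter and 3 with no filter, beside the same count of 3 lower. Ovol2, a zinc finger repressor, had 1.47 to 4.16 FPKM in RAMs and at most 0.111 FPKM in MAMs, Grhl1 had 1.05 to 2.53 FPKM in RAMs, and Klf4, which macrophages also use, fell by 1.17 from 110 to 145 FPKM. Of 8 repressors of Cdh1, 5 were tested, with none lower and 3 higher in MAMs. Zeb2 had 52.8 to 59.3 FPKM in RAMs and 107 to 128 FPKM in MAMs, a log2 fold change of 1.01 (SE 0.0641), which is at the fold limit and was not called under 6 of 19 alternatives. Tcf4 rose by 2.21, and Twist1 rose from at most 0.0717 FPKM to 0.476 to 1.90 FPKM, and Tcf3 was not called. Of 20 p53 targets 18 were tested, with 2 lower, 6 higher and a median of 0.42, beside -6.77 for Perp. Cdkn1a, the cell cycle inhibitor p21, had 249 to 296 FPKM in RAMs and 989 to 1346 FPKM in MAMs and rose by 2.06, and Mdm2 rose by 1.98. Pmaip1 and Ddit4 rose as well, and so did Bax, by 1.12, which was not called under upper-quartile scaling or with library totals alone.

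**Figure D5:**
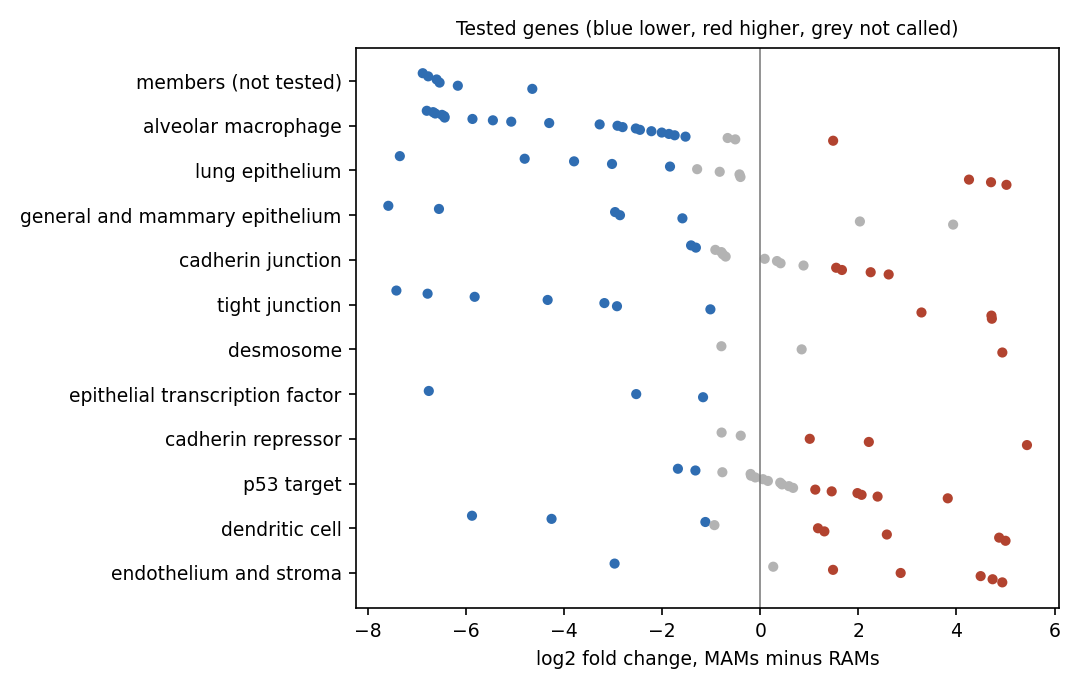
Log2 fold change of MAMs against RAMs for the 6 members, which were not tested, and for the tested genes of 11 lists; each point is 1 gene, blue if called lower in MAMs or a member, red if called higher, grey if not called. The members lie between -6.88 and -4.65, and among the lists the alveolar macrophage genes lie mostly to the left and the cadherin junction genes on both sides of 0.

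Alveolar macrophage genes were mostly lower in MAMs. Of 24 listed, 23 were tested, and 20 were called lower in MAMs, with a median of -2.91. Over all genes tested 15.1% were called lower. The 20 include Itgax, which encodes CD11C, and the gates took CD11C+ RAMs and CD11C- MAMs, so the sorting favoured that call. Fabp5, a fatty acid binding protein, was called higher. Marco, a scavenger receptor, and Ltc4s were not called, with 49.1 to 216 FPKM of Marco in MAMs and 164 to 301 FPKM in RAMs. Fabp4 fell by 1.53. The defining markers Chil3 and Siglecf had RAM means of 9151 and 333 CPM and MAM means of 105 and 3.85 CPM. The MAM mean was 34.7% of the RAM mean for Fabp4, 63.0% for Marco, 70.2% for Ltc4s and 280% for Fabp5, so the markers of the list did not move alike. Fabp1 and Cidec, a lipid droplet protein, had log2 fold changes of -6.801 and -6.67, and Ear2 of -5.87, and all 3 were called lower.

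Genes with the profile nearest to each member over the 10 libraries were sought among 11570 tested genes, by the mean absolute difference of centred log2 CPM. The measure includes the difference between the groups that chose the members, so it is a description. For Plet1 they were Ear1 (0.0804), Chil3 (0.0906) and Siglecf (0.139), all 3 on the alveolar macrophage list. For Perp they were Ear1 (0.126), Plet1 (0.148) and the serotonin transporter gene Slc6a4 (0.163). For Krt79 they were Htr2c (0.141), D630039A03Rik (0.144) and Plet1 (0.160). For Krt19 they were Kcnn3 (0.149), Mfsd7c (0.181) and Slc6a4 (0.231), and Kcnn3, a potassium channel, had its highest MAM level in MAM1 as Krt19 did, with 20.8 CPM against 7.97 to 10.7 CPM. For Epcam they were Prom1 (0.215), D630039A03Rik (0.221) and Perp (0.245), and Prom1, a membrane protein known as CD133, was also lowest in RAM4, with 62.4 CPM against 81.1 to 93.9 CPM. For Cdh1 they were Chd5 (0.294), Lilra5 (0.338) and Dysf (0.362), farther than for any other member. Chd5 and Lilra5 shared the high levels of MAM4 and MAM5, with 4.91 and 11.6 CPM in MAM5 against 1.26 and 6.08 CPM in MAM1.

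Other cells that the gates could hold were read by their markers. Of 16 dendritic cell genes 9 were tested, with 3 called lower in MAMs and 5 higher (3 without MAM1, without RAM3 or without RAM4), and Flt3 was not among those tested. Ly75, an endocytic receptor of dendritic cells, had 61.7 to 70.7 FPKM in RAMs and 0.902 to 1.18 FPKM in MAMs and fell by 5.88. Fscn1 rose by 5.00, Mgl2 by 4.87 and Batf3 by 1.18, the last not called under 8 of 19 alternatives, and Sirpa was not called. The summed level of the list was 248 to 302 FPKM in MAMs and 528 to 557 FPKM in RAMs, mostly from Sirpa, which macrophages also express. Of 16 genes of endothelium and stroma 7 were tested, with 1 called lower, which was Vwf, and 5 higher. Pecam1 rose by 2.86, Kdr by 4.93, Pdgfra by 4.49 and Col1a1 by 4.74, the last from at most 0.178 FPKM in RAMs. The summed level was 14.3 to 26.3 FPKM in MAMs and 15.4 to 27.2 FPKM in RAMs, in RAMs mostly from Vwf. Without Vwf it was 12.4 to 23.8 FPKM in MAMs and 2.68 to 5.62 FPKM in RAMs, without overlap. On log2(FPKM + 1), 2 of this list were called higher. The part of such cells in the members' levels was not tested.

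A library held 50746305 to 87523247 counts on genes. The share of lines that named no gene was 54.6% to 58.3% in MAMs and 62.2% to 64.1% in RAMs, and TMM factors were 0.897 to 0.943 and 1.07 to 1.10, so both differed between the groups without overlap. All members were lower in MAMs under each scaling.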

How the data were processed

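Counts were whole numbers of uniquely mapped reads per gene, made by the authors with TopHat2 2.0.13 on mm10 (GRCm38) and HTSeq 0.6.1 on UCSC RefGene models and deposited without normalization. The deposited FPKM values were made by the authors with Cufflinks 2.2.1, which scales by transcript length and mapped fragments. Versions are those in the submitters' processing notes, which also name DESeq2 1.6.3. Libraries were made with the Ovation RNA-Seq System V2 and grouped by their sample labels.

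Lines without a gene, 54.6% to 64.1% of a library, did not enter library sizes. Library sizes in the fit and for CPM were the counts on the 11571 genes tested, 43710976 to 74768993. The 11571 genes with counts whose mean FPKM reached 1 in either group were tested with edgeR's quasi-likelihood test (edgeR 4.0.16, R 4.3.3), TMM normalization, no covariates and Benjamini-Hochberg adjustment over all of them. A call needed a fold over 2 and an adjusted p under 0.05. Log2 CPM had a prior count of 2. Every p value named from edgeR is from this fit. The labels do not say which mice went into which library, so p values measure the spread between these samples. Counts of 0 allow up to 3 counts, counting error only, and reads are not independent molecules.

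The members and the 11 gene lists were chosen with earlier results of these data known, and members were left out of the lists. Genes named were the members, the 3 most abundant and the 3 most changed called genes of each list, fixed defining markers, the 3 nearest profiles of each member and the other tested keratins. Any other gene was named after its values were seen, and 1 gene of the general and mammary epithelium list is not reported here. Fabp1, Car4, Cidec and other list genes at the lowest shares were listed by that share. Promoters are RefSeq's for GRCm38.p6 (3 of 6 members matched by symbol), and positions are GENCODE M21. Alternatives were DESeq2 1.42.0, RLE and upper-quartile scaling, library totals alone, edgeR's filter, no filter, a replicate block, limma 3.58.1 on log2(FPKM + 1) and log2(FPKM + 0.1), and each library left out. Values without a library, such as the coefficient of variation without RAM4, were added after seeing the data. Python 3.11.15 and matplotlib 3.10.9 made the figures. The fits were tested on simulated data.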

Additional observations from a re-analysis of the deposited data

Results flagged for a closer look

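In 122 groups of 5 libraries, 1 library lay apart from the other 4 by Dixon's criterion (0.71 for 5 values) in 4 cases, and chance flags about 1 in 20 groups. Krt18 had 7.918 FPKM in MAM1 against 0 to 0.185 FPKM in the other MAM libraries, and its fold change changed sign without MAM1 and with the replicate block. Krt1 had 1.045 FPKM in MAM2 against 0 to 0.0191 FPKM. Krt4 had 2.808 FPKM in RAM3 against 0.676 to 1.13 FPKM in the other RAM libraries. Kcnn3, the gene nearest in profile to Krt19, had 2.702 FPKM in MAM1 against 0.994 to 1.35 FPKM. None of the 6 members had such a library in either group.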

How the results depend on the processing

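All members were lower in MAMs under each of the 19 alternatives. Their log2 fold changes moved by more than the spread between replicates in 8 cases. On log2(FPKM + 1), which understates changes of genes near 1 FPKM, they were -5.02 for Epcam, -5.71 for Perp, -5.63 for Krt79 and -6.43 for Plet1, and on log2(FPKM + 0.1) Epcam had -6.43. With library totals alone Perp had -7.00 and Plet1 -6.77, and with upper-quartile scaling Plet1 had -6.70. These scalings shifted the median of all genes by -0.23 and -0.16. The count of general and mammary epithelium genes called lower was 2 on log2(FPKM + 1), against 5. No other count of the lists of alveolar macrophage, lung epithelium, epithelium or junction genes moved by over 1.5 times.

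Genes called lower or higher numbered 1745 and 1766, and with the replicate block 1773 and 1753. Taken over all tested genes, same-numbered libraries did not deviate together (correlations -0.037 to 0.029). MAM3 and MAM5 correlated best with the RAM library of their own number, and MAM1, MAM2 and MAM4 with that of another. A batch shared by same-numbered libraries in some genes was not tested. Among the other lists, counts of 5 or fewer genes moved by over 1.5 times in 10 cases, with no reversal. Of 69 other genes named and tested, 55 had the same call under every alternative, and 2 reversed in direction, neither of them called: Krt18 (without MAM1 and with the block) and Ctnna1 (0.09, at lowest -0.14, under upper-quartile scaling, library totals alone and without MAM1). The MAM counts of Epcam, 27 to 41 a library, limit the precision of its fold change.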
